A study of Mus musculus with 7 samples.

Results

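The mitosis and cytokinesis genes are the genes whose products divide a duplicated cell: mitotic cyclins and CDK1, the transcription factors and kinases of mitosis, the spindle checkpoint, the chromosomal passenger complex, kinesins, kinetochore and spindle proteins, condensin and the cytokinesis machinery. They were taken from the count tables by gene name, from a list of mitotic roles drawn up with earlier results of these data known, and gave 59 of the 49315 genes listed. All 59 passed the filter on low counts, as did 16616 genes in all. The cells were oligodendroglia from mouse brain, placed by the series title in early postnatal NG2 glia, the dividing progenitors of oligodendrocytes. The control group (genotype Sox9-wt) had 3 libraries of bulk RNA, and the Sox9-tg group, whose cells overexpress the transcription factor Sox9, had 4. The labels name no promoter or Cre driver for the transgene and give no age in days, sex, sorting step or batch. The libraries are called biological replicates, with nothing on separate animals or cultures, so p-values measure only the spread between these libraries, which may in part be technical.

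Entry into mitosis is driven by CDK1 bound to a B-type cyclin. The same waves of transcription that supply these kinases, in G2 and M phase, also supply the motors and kinetochore parts that capture chromosomes, the condensin that compacts them and the ring that pinches the daughter cells apart. Many of these genes are held down in resting cells and early G1 phase by the DREAM complex of E2F, p130 and MuvB proteins. They are switched on by B-Myb and FoxM1. In the brain of a young animal many of these genes mark dividing progenitors, and cells that leave the cycle to mature lose most of their transcripts.

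Their promoters are known for paired elements, and the deposited genes were set beside the RefSeq sequences of GRCm38.p6 to show them for 6 classes, in the member of each with the smallest p-value that had an entry. The reference table held 54 windows, each 300 bases long, for 49 of the 59 members and 32851 windows in all. Entries were missing for Aurkb, Ccna2, Cdc25c, Dlgap5, Foxm1, Incenp, Kif20a, Smc4, Spc24 and Tpx2. The letters searched on both strands were CCAAT (the box bound by NF-Y), TTTGAA or TTTAAA (the cell cycle genes homology region, CHR, bound by MuvB complexes) and TTTGGCGC, TTTCGCGC or TTTCCCGC (E2F sites). TTTAAA reads the same on both strands and was counted once. In the windows below, each written 5′ to 3′ on the gene's strand, from 250 bases before the start of transcription to 50 bases after it, the capitals mark these matches.
Cdk1, chr10:69352863-69353162, minus strand: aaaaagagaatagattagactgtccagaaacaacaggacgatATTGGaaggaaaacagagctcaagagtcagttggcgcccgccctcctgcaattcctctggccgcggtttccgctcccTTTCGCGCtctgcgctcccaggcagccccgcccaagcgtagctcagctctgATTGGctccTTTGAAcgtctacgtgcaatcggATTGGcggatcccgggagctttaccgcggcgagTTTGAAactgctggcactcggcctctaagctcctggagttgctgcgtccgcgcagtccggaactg
Mybl2, chr2:163054385-163054684, plus strand: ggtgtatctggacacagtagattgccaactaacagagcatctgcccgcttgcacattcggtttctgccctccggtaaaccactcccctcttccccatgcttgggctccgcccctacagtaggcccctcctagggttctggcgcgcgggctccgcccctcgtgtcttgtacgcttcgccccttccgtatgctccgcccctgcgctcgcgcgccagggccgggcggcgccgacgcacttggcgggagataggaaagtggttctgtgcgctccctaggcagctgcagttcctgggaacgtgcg
Cdc20, chr4:118437294-118437593, minus strand: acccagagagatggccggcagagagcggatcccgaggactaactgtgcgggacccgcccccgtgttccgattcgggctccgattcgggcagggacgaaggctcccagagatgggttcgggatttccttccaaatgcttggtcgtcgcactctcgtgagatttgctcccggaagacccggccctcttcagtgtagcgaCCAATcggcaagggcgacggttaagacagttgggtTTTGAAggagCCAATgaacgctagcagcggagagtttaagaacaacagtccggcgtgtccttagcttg
Birc5, chr11:117848987-117849286, plus strand: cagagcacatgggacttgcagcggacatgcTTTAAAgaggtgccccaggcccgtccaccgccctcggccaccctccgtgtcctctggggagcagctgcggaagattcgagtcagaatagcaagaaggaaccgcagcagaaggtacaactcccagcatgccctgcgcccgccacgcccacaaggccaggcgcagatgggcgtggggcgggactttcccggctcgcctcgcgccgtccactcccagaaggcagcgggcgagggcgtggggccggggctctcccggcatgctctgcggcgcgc
Ncapd2, chr6:125191537-125191836, minus strand: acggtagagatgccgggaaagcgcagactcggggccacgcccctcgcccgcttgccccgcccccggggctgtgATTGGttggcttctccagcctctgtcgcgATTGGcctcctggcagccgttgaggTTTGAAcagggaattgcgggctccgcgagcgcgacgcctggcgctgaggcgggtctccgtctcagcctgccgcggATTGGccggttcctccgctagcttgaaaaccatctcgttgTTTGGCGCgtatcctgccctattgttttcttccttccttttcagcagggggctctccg
Prc1, chr7:80294201-80294500, plus strand: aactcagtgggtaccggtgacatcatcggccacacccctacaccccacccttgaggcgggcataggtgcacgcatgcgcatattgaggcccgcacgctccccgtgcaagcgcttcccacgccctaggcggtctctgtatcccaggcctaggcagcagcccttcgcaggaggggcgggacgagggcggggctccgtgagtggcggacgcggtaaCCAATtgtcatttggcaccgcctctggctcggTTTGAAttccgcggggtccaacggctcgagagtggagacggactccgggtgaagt

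The Cdk1 window held 3 CCAAT boxes, 2 CHR matches and 1 E2F match, and the Ncapd2 window 3, 1 and 1. Cdc20 had 2 CCAAT boxes and 1 CHR match, Prc1 had 1 of each in the window shown, Birc5 had 1 CHR match of the form TTTAAA, and Mybl2 had none of the letters searched. Over all members, a CCAAT box stood in 38 of 54 windows (70.4%, against 37.4% of all windows) and TTTGAA in 38 (70.4%, against 17.9%). TTTAAA stood in 10 member windows (18.5%, against 13.2%). Both a CCAAT box and a CHR match were found in 33 member windows, 61.1% of them against 10.7% of all. CHR matches in members lay close to the start of transcription, at a median of -17 bases, where the median over all windows was -127. An E2F match stood in 4 member windows (7.41%, against 1.84%). These matches are a description of the letters, not of bound sites.

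The overexpressed gene was checked first. Sox9 was at 238.9, 352.8 and 293 CPM (counts scaled to library size) in control libraries 1 to 3, and at 2207, 2741, 3597 and 3115 in Sox9-tg libraries 1 to 4, so each library matched its label. Library totals ran from 15768472 to 30507326 counts, and no member had fewer than 49 counts in any library (Cenpk). Of all genes tested, 973 were lower in Sox9-tg at an adjusted p under 0.05, 1278 were higher and 14365 did not pass. The libraries numbered 1 had the largest member totals in their groups: the summed level of the 59 members was 5892 CPM in control 1, against 4286 and 4506 in controls 2 and 3. In the Sox9-tg group it was 3098 CPM in library 1, and 1483, 2203 and 2437 in libraries 2, 3 and 4. Every Sox9-tg total lay below every control total.

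Transcripts for mitosis and cytokinesis were less abundant in Sox9-tg cells in all 10 classes. Of the 59 members, 55 were lower at an adjusted p under 0.05 in edgeR's quasi-likelihood test, a share of 93.2% where 5.86% of all genes tested were lower. None was higher, where 7.69% of all genes were. All 59 had an unadjusted p under 0.05, and neither DESeq2 nor limma-voom called a member higher. The median log2 fold change of the members was -1.08, a level 2.11 times lower, and the median over all genes was -0.01. All 59 log2 fold changes were negative, from -1.32 for Birc5 to -0.68 for Pttg1, whereas 51.4% of all genes had a negative value. In 55 members every Sox9-tg library was below every control library, which held for 11.5% of all genes. Since the list was drawn up with such results known, these shares describe the members and are not independent evidence of their direction. The exceptions on both counts were Kif20b, Cenpf, Aspm and Mki67. In bulk RNA, fewer dividing cells and less of these transcripts per cell cannot be told apart.

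**Figure D1:**
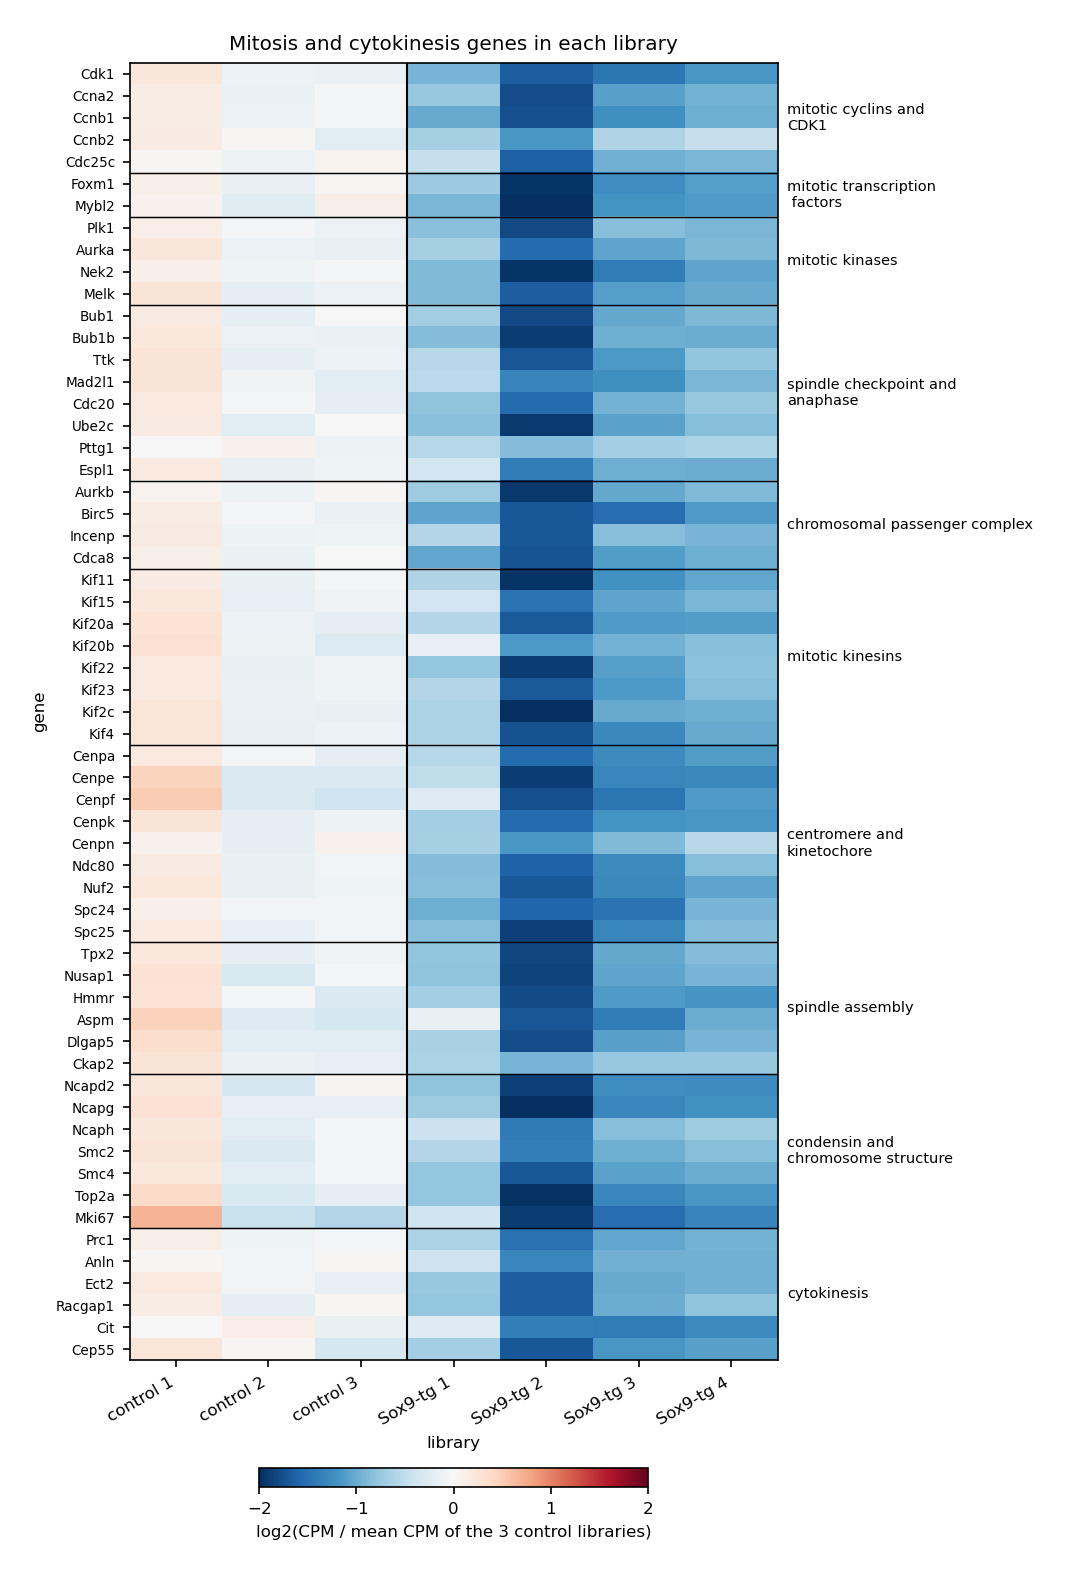
Level of each of the 59 members (vertical axis, grouped by role) in the 3 control and 4 Sox9-tg libraries (horizontal axis), coloured by log2 of its CPM over the mean CPM of the 3 control libraries. The Sox9-tg columns are blue in nearly every line, and deepest in Sox9-tg 2, which was lowest of its group in 58 members. Control 1 is the reddest column and was highest of its group in 55 members.

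The number of members past the threshold depended on single libraries, while the direction did not. Without control 1, 14 members were lower, and without control 3 there were 21. Without Sox9-tg 3 the count was 24, and without Sox9-tg 4 it was 37. Without control 2 or Sox9-tg 2 it was 51 and 53, and without Sox9-tg 1 all 59 passed. The median log2 fold change stayed between -1.23 and -0.89 in these 7 fits, in which 2.26% to 8.46% of all genes were lower. The members that passed in all 7 were 13: Cdk1, Ccnb1, Mybl2, Nek2, Melk, Birc5, Cdca8, Ndc80, Nuf2, Spc24, Ckap2, Smc4 and Prc1. Sox9-tg 3 and 4 were the most alike libraries, and the main test counts them as 2. With these summed into 1 library, 32 members were lower, where 3.02% of all genes tested were. Same-numbered libraries can also be set against each other: in each of the 3 pairs all 59 members were lower in Sox9-tg, with a median difference in log2(CPM + 1) of -0.87, -1.49 and -0.98 in pairs 1, 2 and 3. With the replicate number as a block, all 59 members passed, with a median log2 fold change of -1.16. Sox9-tg 4 has no control of its number, so the group difference in that fit rests on the 3 pairs.

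**Figure D2:**
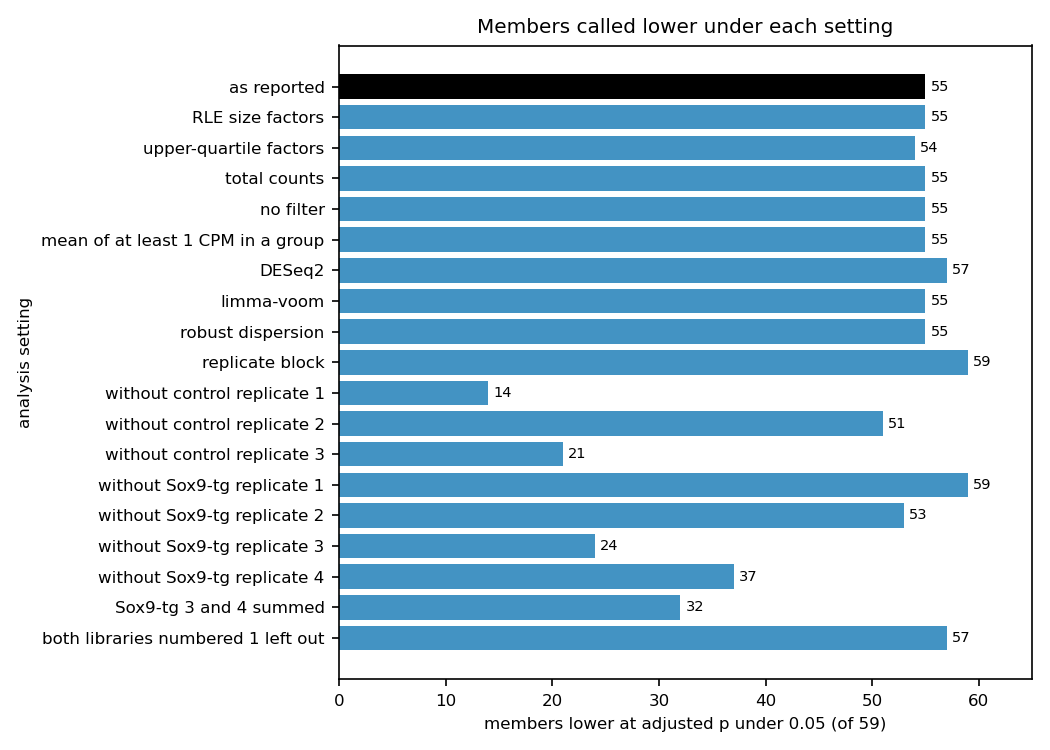
Number of the 59 members lower in Sox9-tg at an adjusted p under 0.05 (horizontal axis) under each analysis setting (vertical axis). The black bar is the analysis as reported, with 55 members. The shortest bars leave out control 1 (14), control 3 (21) or Sox9-tg 3 (24).

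The mitotic cyclins and CDK1 set the time of entry into mitosis, and all 5 members fell (median log2 fold change -1.09). Cdk1 (ENSMUSG00000019942, GRCm38 chromosome 10, 69335146 to 69352938, minus strand), the kinase that starts mitosis, was at 64.0, 50.5 and 50.2 CPM in controls 1 to 3 and at 28.8, 17.5, 20.1 and 24.6 CPM in Sox9-tg 1 to 4. The highest Sox9-tg library was well below the lowest control. The group means were 54.9 ± 7.88 (SD, n = 3) and 22.8 ± 4.99 CPM (SD, n = 4), and the log2 fold change was -1.27 (SE 0.18), with an adjusted p of 0.0028 in edgeR's quasi-likelihood test. Ccnb1 (ENSMUSG00000041431, chromosome 13, 100778650 to 100786570, minus strand), the cyclin B1 subunit that activates CDK1, was at 108, 90.4 and 95.9 CPM in controls and at 48.6, 29.0, 42.2 and 50.2 CPM in Sox9-tg libraries. The groups stood far apart here too, with a log2 fold change of -1.21 (SE 0.18, adjusted p = 0.00368). Ccna2 (cyclin A2) fell with a log2 fold change of -1.09, Cdc25c (a phosphatase that activates CDK1) with -0.94 and Ccnb2 (cyclin B2) with -0.70, the smallest of the class. The log2 ratio of Ccnb1 to Ccnb2 within a library was 1.41, 1.299 and 1.61 in controls and 1.08, 0.84, 0.81 and 0.93 in Sox9-tg, with no overlap. This ratio, like those given below, was chosen after its values had been seen and was not tested. Of the 5 calls, 2 passed without control 1, 3 without control 2, 2 without control 3, 3 without Sox9-tg 3 and 4 without Sox9-tg 4.

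Both transcription factors that switch on mitotic genes fell. Mybl2 (B-Myb, ENSMUSG00000017861, chromosome 2, 163054687 to 163084688, plus strand), which joins MuvB at mitotic promoters, was at 46.5, 37.2 and 47.8 CPM in controls and at 23.4, 11.1, 19.1 and 19.9 CPM in Sox9-tg. No Sox9-tg library reached the control range, and the log2 fold change was -1.25 (SE 0.23, adjusted p = 0.00811). Foxm1 (ENSMUSG00000001517, chromosome 6, 128362967 to 128376146, plus strand) was at 143, 118 and 134 CPM in controls and at 79.9, 33.8, 55.8 and 61.5 CPM in Sox9-tg. Its spread among Sox9-tg libraries was wide, from a low in library 2 to a high in library 1, all below the controls. The log2 fold change of Foxm1 was -1.19 (SE 0.24, adjusted p = 0.0137), and it did not pass without control 1 (adjusted p = 0.0579) or control 3 (0.0624).

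All 4 mitotic kinases besides CDK1 fell (median -1.09). Nek2 (ENSMUSG00000026622, chromosome 1, 191821444 to 191833050, plus strand), which separates the centrosomes, was at 47.3, 41.6 and 43.4 CPM in controls and at 23.9, 11.3, 16.7 and 21.2 CPM in Sox9-tg. The controls were tight and every Sox9-tg library lay far under them, with a log2 fold change of -1.27 (SE 0.23, adjusted p = 0.00733). Melk (ENSMUSG00000035683, chromosome 4, 44300876 to 44364675, plus strand), a kinase that peaks in mitosis, was at 43.4, 31.5 and 33.4 CPM in controls and at 19.5, 11.5, 16.7 and 18.01 CPM in Sox9-tg. Control 1 stood above the other controls, yet the groups did not overlap (log2 fold change -1.13, SE 0.19, adjusted p = 0.00641). Plk1 and Aurka, kinases of centrosome maturation and spindle assembly, fell with log2 fold changes of -1.05 and -0.9995. Plk1 lost the call without control 1 (adjusted p = 0.0694) or control 3 (0.0574), and Aurka without control 1 (0.0611).

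All 8 genes of the spindle checkpoint and of anaphase fell, with a median of -0.98. Cdc20 (ENSMUSG00000006398, chromosome 4, 118432901 to 118437352, minus strand), the activator of the anaphase-promoting complex (APC/C) that the checkpoint restrains, was at 134, 114 and 104 CPM in controls and at 66.8, 40.5, 61.0 and 69.3 CPM in Sox9-tg. Its lowest control was well above its highest Sox9-tg library (log2 fold change -0.98, SE 0.19, adjusted p = 0.0103; 0.0565 without control 1). Pttg1 (securin, ENSMUSG00000020415, chromosome 11, 43420250 to 43426251, minus strand), which holds separase in check until anaphase, was at 16.8, 17.8 and 15.7 CPM in controls and at 11.3, 9.23, 10.4 and 10.8 CPM in Sox9-tg. Both groups were tight, and the log2 fold change of -0.68 (SE 0.14, adjusted p = 0.0129; 0.0531 without control 1, 0.0521 without control 3 and 0.0511 without Sox9-tg 3) was the smallest of the 59. Separase itself, Espl1, fell with -0.89. The checkpoint kinases and adaptors Bub1 (-1.05), Bub1b (-1.13), Ttk (-0.99) and Mad2l1 (-0.96) fell, as did Ube2c (-1.11), the ubiquitin-conjugating enzyme of the APC/C. Without control 1 none of the 8 passed (adjusted p from 0.0531 to 0.125), without control 3 there were 3, without Sox9-tg 3 there were 2 and without Sox9-tg 4 there were 6.

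The chromosomal passenger complex, which corrects faulty attachments and later guides cytokinesis, fell in all 4 members. Birc5 (survivin, ENSMUSG00000017716, chromosome 11, 117849251 to 117855743, plus strand) was at 49.3, 43.4 and 40.4 CPM in controls and at 21.4, 13.7, 15.5 and 20.3 CPM in Sox9-tg. Its means of 44.4 ± 4.55 (SD, n = 3) and 17.7 ± 3.70 CPM (SD, n = 4) gave the largest fold of all members, 2.501 times lower (log2 fold change -1.32, SE 0.17, adjusted p = 0.0018 by edgeR). Cdca8 (borealin, ENSMUSG00000028873, chromosome 4, 124918465 to 124939311, minus strand) was at 90.2, 75.2 and 82.9 CPM in controls and at 40.3, 25.1, 38.0 and 42.0 CPM in Sox9-tg. Here too the groups were far apart (log2 fold change -1.19, SE 0.18, adjusted p = 0.00333). The scaffold Incenp and the kinase Aurkb fell with -0.96 and -1.07, and these were the calls that did not hold in every leave-one-out fit: 2 of the 4 members passed without control 1, control 3 or Sox9-tg 3, and 3 without Sox9-tg 4.

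**Figure D3:**
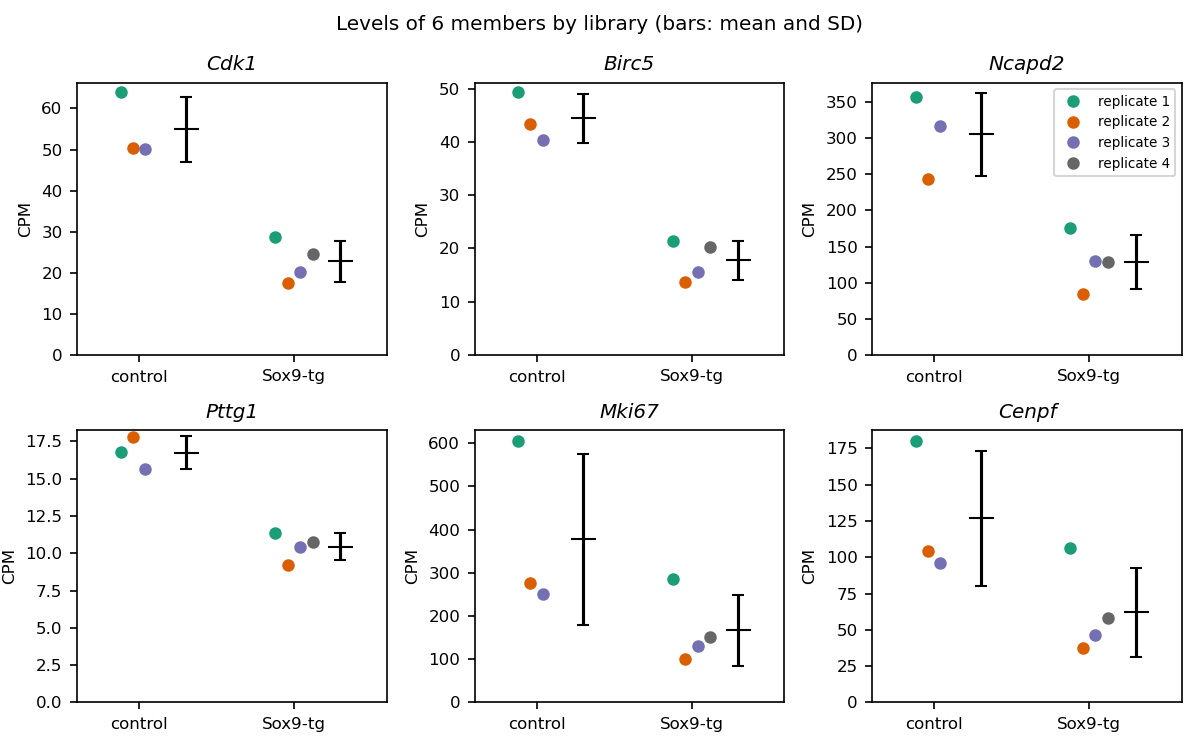
CPM of Cdk1, Birc5, Ncapd2, Pttg1, Mki67 and Cenpf (vertical axes, from 0) in control and Sox9-tg libraries, 1 point per library coloured by replicate number, with the group mean and SD beside the points. The first 4 genes show separate groups, while for Mki67 and Cenpf the libraries numbered 1 stand far above the rest of their group and Sox9-tg 1 reaches the control range.

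Among the 8 mitotic kinesins, motors that build the spindle and move chromosomes, 7 fell (median of the 8, -1.07). Kif4 (ENSMUSG00000034311, chromosome X, 100625737 to 100727214, plus strand), a chromosome-bound motor, was at 61.7, 47.1 and 48.0 CPM in controls and at 33.5, 15.6, 21.4 and 26.1 CPM in Sox9-tg. Library 1 was highest in both groups, and the groups did not overlap (log2 fold change -1.11, SE 0.24, adjusted p = 0.0159). Kif20a (ENSMUSG00000003779), a motor of the central spindle, was at 66.3, 50.2 and 47.7 CPM in controls and at 36.3, 17.0, 25.1 and 25.3 CPM in Sox9-tg (log2 fold change -1.08, SE 0.23, adjusted p = 0.0175). Its exons overlap those of Cdc23 on the opposite strand over 29.3% of their length. Kif11, the motor that pushes spindle poles apart, fell with a log2 fold change of -1.13, Kif22 with -1.09, Kif2c with -1.07, Kif23 with -1.01 and Kif15 with -0.90. Kif20b (ENSMUSG00000024795, chromosome 19, 34922361 to 34975745, plus strand), a relative of Kif20a that acts in late cytokinesis, did not pass: it was at 39.9, 30.1 and 26.7 CPM in controls and at 28.9, 14.5, 16.8 and 17.9 CPM in Sox9-tg. Sox9-tg 1 lay above control 3, and the log2 fold change was -0.72 (SE 0.24, adjusted p = 0.0907; with the replicate block, 0.0101, and by DESeq2, 0.0497). The kinesin calls moved with single libraries: none of the 8 passed without control 1 (smallest adjusted p 0.07), Sox9-tg 3 (0.0558) or control 3 (just over the threshold), 3 passed without Sox9-tg 4, 6 without control 2 and all 8 without Sox9-tg 1.

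At the centromere and kinetochore 8 of 9 members fell (median -1.11). The NDC80 complex, which grips microtubule ends, fell in all 4 subunits. Spc24 (ENSMUSG00000074476, chromosome 9, 21755442 to 21760303, minus strand) was at 40.3, 35.9 and 36.1 CPM in controls and at 19.1, 12.5, 13.4 and 19.6 CPM in Sox9-tg. Its controls were nearly level and its highest Sox9-tg library was far below them (log2 fold change -1.21, SE 0.18, adjusted p = 0.00324). Nuf2 (ENSMUSG00000026683, chromosome 1, 169497934 to 169531464, minus strand) was at 59.6, 46.4 and 48.6 CPM in controls and at 28.5, 15.9, 21.1 and 24.8 CPM in Sox9-tg (log2 fold change -1.19, SE 0.19, adjusted p = 0.00498). The partner subunits Spc25 (-1.17) and Ndc80 (-1.11) fell by like amounts, and the log2 ratio of Ndc80 to Nuf2 overlapped between the groups (mean -0.93 in control and -0.86 in Sox9-tg), as did that of Spc24 to Spc25 (-0.33 and -0.35). Cenpa, the histone H3 variant that marks centromeres, fell with -1.08, the kinetochore motor Cenpe with -1.16, and Cenpk and Cenpn of the inner kinetochore with -1.11 and -0.80. Cenpk had the fewest counts of the 59, at 49 to 209 a library. Without control 1, control 3, Sox9-tg 3 and Sox9-tg 4 the class had 3, 4, 5 and 6 calls, and 7 without Sox9-tg 2.

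Cenpf (ENSMUSG00000026605, chromosome 1, 189640606 to 189688086, minus strand), a large protein of the outer kinetochore, was the kinetochore member that did not pass. It was at 180 CPM in control 1 and at 104 and 96.1 CPM in controls 2 and 3, and at 106 CPM in Sox9-tg 1 and 37.6, 46.2 and 57.8 CPM in Sox9-tg 2 to 4. Library 1 thus stood far above its group on both sides, and Sox9-tg 1 was above controls 2 and 3. The log2 fold change of -1.03 was near the median of the members, with an SE of 0.36 and an adjusted p of 0.0985. With the replicate block it was -1.09 with an adjusted p of 0.00132, by DESeq2 the adjusted p was 0.0266 and without Sox9-tg 1 it was 0.0104.

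Spindle assembly factors fell in 5 of 6 members (median of the 6, -1.06). Ckap2 (ENSMUSG00000037725, chromosome 8, 22168160 to 22185819, minus strand), a microtubule-associated protein of the spindle, was at 55.7, 42.7 and 41.9 CPM in controls and at 30.2, 24.5, 27.7 and 27.6 CPM in Sox9-tg. The 4 Sox9-tg libraries were close together and all below the controls, with a log2 fold change of -0.76 (SE 0.14, adjusted p = 0.00741). Tpx2 (ENSMUSG00000027469, chromosome 2, 152847964 to 152895321, plus strand), which activates Aurora A on the spindle, was at 191, 145 and 156 CPM in controls and at 94.7, 46.3, 80.8 and 89.3 CPM in Sox9-tg (log2 fold change -1.07, SE 0.23, adjusted p = 0.0163; 0.0758 without control 1, 0.0652 without control 3 and 0.0502 without Sox9-tg 3). Nusap1 and Hmmr, which bind spindle microtubules, fell with -1.11 and -1.14, and Dlgap5 with -1.05. Aspm (ENSMUSG00000033952, chromosome 1, 139454772 to 139494091, plus strand), a spindle pole protein whose loss causes small brains, did not pass. It was at 117, 71.1 and 66.5 CPM in controls and at 76.7, 26.0, 32.2 and 42.8 CPM in Sox9-tg, so that Sox9-tg 1 was above controls 2 and 3. Its log2 fold change was -0.93 (SE 0.36, adjusted p = 0.132), and -1.03 with the replicate block (adjusted p = 0.00276). Of the class, 1 member passed without control 1, 2 without control 3, 1 without Sox9-tg 3 and 3 without Sox9-tg 4.

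Condensin and the other chromosome proteins had a median of -1.17, and 6 of the 7 fell. Smc4 (ENSMUSG00000034349, chromosome 3, 69004738 to 69034623, plus strand), a core ATPase of condensin, was at 203, 152 and 172 CPM in controls and at 103, 54.0, 83.3 and 87.8 CPM in Sox9-tg. The groups were well apart, with a log2 fold change of -1.10 (SE 0.21, adjusted p = 0.00929). Ncapd2 (ENSMUSG00000038252, chromosome 6, 125168007 to 125191701, minus strand), a subunit of condensin I, was at 357, 243 and 317 CPM in controls and at 175, 83.9, 129.7 and 128 CPM in Sox9-tg (log2 fold change -1.24, SE 0.24, adjusted p = 0.01; 0.0501 without control 3). The other condensin I subunits Ncapg (-1.27) and Ncaph (-0.81) and the partner ATPase Smc2 (-0.92) fell. The log2 ratio of Ncapd2 to Ncaph was 2.28, 2.17 and 2.37 in controls and 1.91, 1.83, 1.90 and 1.74 in Sox9-tg, and that of Ncapg to Ncaph was also lower in every Sox9-tg library. The log2 ratio of Smc2 to Smc4 went the other way, from -0.36, -0.48 and -0.40 to -0.21, -0.09, -0.31 and -0.27. These condensin ratios too were chosen after their values had been seen and were not tested. Without control 1, control 3, Sox9-tg 3 and Sox9-tg 4 the class had 2, 1, 2 and 3 calls.

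Top2a and Mki67, the most used marks of dividing cells, had the highest CPM of the members. Top2a (topoisomerase II alpha, ENSMUSG00000020914, chromosome 11, 98992943 to 99024189, minus strand) was at 509.7, 314 and 345 CPM in controls and at 229, 98.8, 157 and 174 CPM in Sox9-tg. The groups did not overlap, and the log2 fold change was -1.24 (SE 0.28, adjusted p = 0.0188), but it did not pass without control 1 (0.0823), control 3 (0.0593), Sox9-tg 3 (0.0623) or Sox9-tg 4 (0.0527). Mki67 (Ki-67, ENSMUSG00000031004, chromosome 7, 135689784 to 135716361, minus strand), which coats mitotic chromosomes, was at 605 CPM in control 1 but at 276 and 251 in controls 2 and 3, and at 287 CPM in Sox9-tg 1 but at 101, 132 and 151 in Sox9-tg 2 to 4. Sox9-tg 1 was therefore above controls 2 and 3. Its log2 fold change was -1.17 with an SE of 0.40, the largest of the members, and an adjusted p of 0.0963. In the fit with the replicate block it was -1.15 with an adjusted p of 0.000831. Without Sox9-tg 1 the adjusted p was 0.0189.

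All 6 cytokinesis genes fell (median -1.01). Prc1 (ENSMUSG00000038943, chromosome 7, 80294450 to 80316259, plus strand), which bundles the microtubules of the central spindle, was at 101, 87.1 and 89.7 CPM in controls and at 59.7, 32.8, 45.2 and 47.8 CPM in Sox9-tg. No Sox9-tg library came near the controls (log2 fold change -0.996, SE 0.18, adjusted p = 0.0084). Ect2 (ENSMUSG00000027699, chromosome 3, 27097222 to 27153878, minus strand), the exchange factor that activates RhoA at the cleavage site, was at 62.5, 52.2 and 48.3 CPM in controls and at 32.3, 17.4, 27.0 and 28.1 CPM in Sox9-tg (log2 fold change -1.05, SE 0.20, adjusted p = 0.00976; 0.0501 without control 1). Racgap1, its activator on the central spindle, fell with -1.02 and Cep55, which recruits the abscission machinery, with -1.11. Anln (anillin of the contractile ring) fell with -0.87 and Cit (citron kinase) with -0.99. Cit had the largest adjusted p of the members that passed, 0.0448, and did not pass when any library except Sox9-tg 1 was left out (adjusted p 0.0864 to 0.125). The log2 ratio of the motor Kif23 to Racgap1, its partner in the centralspindlin complex, overlapped between the groups (mean -1.90 in control and -1.91 in Sox9-tg). Without control 1, control 3, Sox9-tg 3 and Sox9-tg 4 the class had 1, 3, 3 and 3 calls, and 5 without control 2 or Sox9-tg 2.

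The class medians lay close together. Medians of the log2 fold change ran from -0.98 for the checkpoint and anaphase genes to -1.22 for the transcription factors, while single members ran from -1.27 to -0.70 among cyclins and CDK1, and from -1.25 to -1.19 between the transcription factors. No test of one class against another was made, since genes of a class are not replicates. A total of 15 partner ratios within complexes or families were chosen after their values had been seen, and are given as values with no test and no comparison with ratios of other genes. The ratio overlapped between the groups in 10 and did not in 5: Ccnb1 to Ccnb2, Ncapd2 to Ncaph, Ncapg to Ncaph, Kif20a to Kif20b and Smc2 to Smc4.

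**Figure D4:**
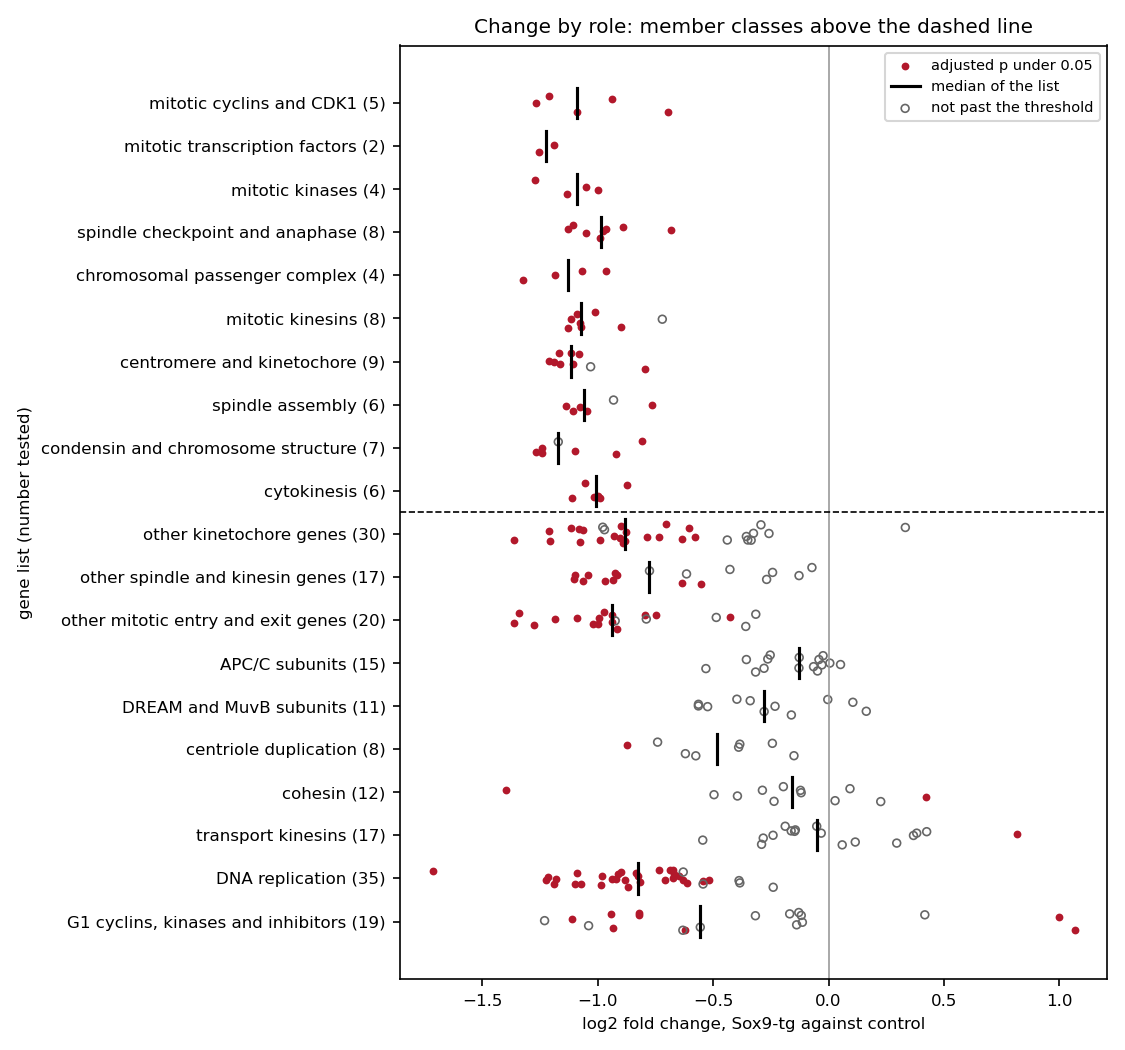
Log2 fold change of Sox9-tg against control (horizontal axis) for each gene tested, by list (vertical axis, number tested in brackets), with the 10 member classes above the dashed line and related lists under it. Filled points passed an adjusted p of 0.05, open points did not, and the bar is the list's median. The member classes cluster near -1, the APC/C subunits and transport kinesins lie around 0, and DNA replication genes lie between -1.71 and -0.24.

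Levels of the members were also set per kb of exon. The length was the union of all annotated exons of a gene, which can exceed that of the transcripts expressed. The order is therefore not a strict ranking of transcript abundance. In control cells Cdc20 had the highest level by this measure, at 62.7 CPM per kb, followed by Ncapd2 (48.8), Top2a (43.2), Mki67 (37.5) and Tpx2 (35.03). The lowest were Cenpk at 1.38 CPM per kb, Cit at 3.53 and Anln at 3.57. Members lay on 18 chromosomes, with 9 on chromosome 2. Exons of 17 members overlap those of another gene, among them Ube2c with Tnnc2 (22.8% of its exon length) and Ncapg with Lcorl (13.4%). The use of strand in the counting is not given in the sources used here, so counts in such stretches cannot be assigned with certainty.

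The 4 members that did not pass differed in exon length, and 3 of them were among the 15 members of at least 7 kb. Their exons summed to 6.96 kb for Kif20b, 15.4 for Cenpf, 11.6 for Aspm and 10.1 for Mki67, in a range of 1531 to 16417 bases over the members. The CPM of control 1 relative to the other controls was 2.29-fold for Mki67, 1.79 for Cenpf, 1.69 for Aspm and 1.67 for Cenpe, and 1.01 for Cit and 1.03 for Anln. In Sox9-tg 1 relative to Sox9-tg 2 to 4 it was 2.29-fold for Aspm, 2.26 for both Mki67 and Cenpf, and 2.08 for Cit. Across the 59 members, which share these libraries, the Spearman correlation of exon length with the excess of Sox9-tg 1 was 0.721, and with that of control 1 it was 0.289. Over all 16563 genes with a length the values were 0.159 and 0.074. The 15 members of at least 7 kb had a median of 1.67-fold in Sox9-tg 1, the 34 of 3 to 7 kb 1.41-fold and the 10 under 3 kb 1.27-fold, whereas all genes of at least 7 kb had 1.11-fold. These are lengths of all annotated exons, not of the transcripts expressed, and the part of length in the spread between libraries was not tested.

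**Figure D5:**
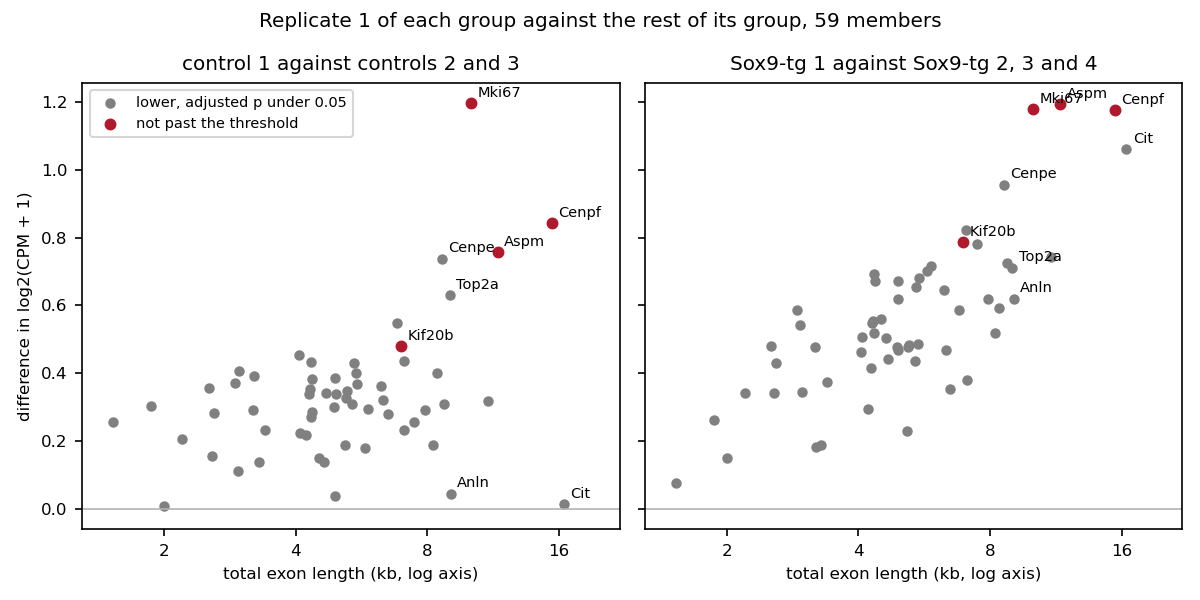
Difference in log2(CPM + 1) between library 1 and the mean of the other libraries of its group (vertical axis) against total exon length (horizontal axis, kb, log scale) for the 59 members, with control 1 on the left and Sox9-tg 1 on the right. Red points are the 4 members that did not pass. Every point is above 0, and the long genes Mki67, Cenpf and Aspm are at the top on both sides.

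Genes outside the 59 were described by lists of related roles, of which the kinetochore, entry and exit, and spindle lists come first. Of 30 other kinetochore genes tested, 20 fell and none rose (median -0.88), with Pmf1 (-0.93, adjusted p = 0.00237) and Cenph (-1.06, adjusted p = 0.00587) having the smallest p in edgeR's test. Only the checkpoint gene Mad1l1 had a positive value there (0.33, adjusted p = 0.137; 0.0358 without Sox9-tg 1). Of 20 further genes of mitotic entry and exit, 15 fell (median -0.94), led by Cks2, a subunit that binds CDK1 (-1.36, adjusted p = 0.00267), and Cdca3 (-1.34, adjusted p = 0.00326). Among 17 other spindle genes and kinesins, 10 fell (median -0.78), with Tacc3 (-0.92, adjusted p = 0.00719; 0.0531 without control 3) and Spag5 (-1.10, adjusted p = 0.00825) first by p. These counts moved with single libraries as well: without control 1 they were 6, 5 and 2, without control 3 they were 6, 5 and 1, without Sox9-tg 3 they were 7, 7 and 4, and without Sox9-tg 4 they were 9, 8 and 4. None of these genes rose at an adjusted p under 0.05 by DESeq2 or limma-voom. With all libraries the condensin II subunits, named after their values were seen, changed less than those of condensin I. Ncapg2 (-0.79) was close to Ncaph of condensin I (-0.81), however. Their order turned without control 3 (-0.87 for Ncapg2 and -0.82 for Ncaph) and without Sox9-tg 1. Ncaph2 fell with -0.43 (adjusted p = 0.0252, but 0.0625 to 0.168 without control 1, control 3 or Sox9-tg 2, 3 or 4). Ncapd3 (-0.49, adjusted p = 0.124) and Ncapg2 (-0.79, adjusted p = 0.0837) did not pass with all libraries. Both passed without Sox9-tg 1 (0.00844 and 0.00494) and with both libraries numbered 1 left out (0.025 and 0.0133), and Ncapg2 also by DESeq2 (0.0372) and with the replicate block (0.00804). The difference between condensin I and condensin II was not tested.

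Other regulators of mitosis and chromosomes gave few calls. Of all genes tested, 5.86% were lower and 7.69% higher. The shares of the cohesin list (8.33% lower and 8.33% higher) and of the transport kinesins (5.88% higher) were near these. None of the 15 APC/C subunits passed in edgeR's test (median -0.13, 3 at an unadjusted p under 0.05, 2 lower by DESeq2 and 0 by limma-voom), the nearest being Anapc15 (-0.53, adjusted p = 0.0613; 0.0414 with the replicate block) and Anapc5 (-0.36, adjusted p = 0.0739). With total counts or upper-quartile factors these 2 passed. The DREAM and MuvB subunits gave 0 of 11 (median -0.28, 4 at an unadjusted p under 0.05, 1 by DESeq2, 0 by limma-voom and 3 with the replicate block), with Lin52 (-0.40, adjusted p = 0.0648; 0.046 with total counts) and Lin9 (-0.56, adjusted p = 0.071; 0.0274 with the replicate block) nearest. Without Sox9-tg 1, 3 of the 11 were lower. That fit called 8.46% of all genes tested lower, and the fit with the replicate block called 9.08%. Of 8 centriole duplication genes the kinase Plk4 fell (-0.87, adjusted p = 0.0316, and 0.132 without control 1, 0.0507 without control 2, 0.0863 without control 3, 0.0999 without Sox9-tg 3 and 0.0702 without Sox9-tg 4), and 4 were lower with the replicate block or without Sox9-tg 1. Among 12 cohesin genes Esco2, the acetyltransferase of S phase, fell (-1.40, adjusted p = 0.0145; 0.0613 without control 1 and 0.0653 without control 3). Its relative Esco1 rose (0.42, adjusted p = 0.0386), but not with the replicate block (0.0805) or when any library except Sox9-tg 1 was left out (0.0645 to 0.123). The replicate block gave 3 cohesin genes lower and 0 higher. Of 17 kinesins of cargo transport none fell and Kif13a rose (0.82, adjusted p = 0.00134), with a median of -0.05. At an unadjusted p under 0.05 there were 4 of these, limma-voom and the replicate block called 1 higher and DESeq2 3, with 2 higher when both libraries numbered 1 were left out. DESeq2 and the replicate block each called 1 lower and limma-voom 0.

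Genes of the other cell cycle phases stood beside the members as follows. DNA replication genes fell in 30 of 35 (85.7%, where 5.86% of all genes tested were lower), with a median of -0.83 against -1.08 for the members. The count was 9 without control 1, 7 without control 3 and 19 without Sox9-tg 3. Of 19 G1 cyclins, kinases and inhibitors 6 fell and 2 rose (median -0.56), and those that fell numbered 1 without control 1, 0 without control 3, 4 without control 2 and 3 without Sox9-tg 3 or Sox9-tg 4. The 2 that rose were the D-type cyclin Ccnd3 (1.00, adjusted p = 0.00655) and the CDK inhibitor Cdkn1c (1.07, adjusted p = 0.0219), the latter not past the threshold without control 2 (0.0633), control 3 (0.0964), Sox9-tg 3 (0.0582) or Sox9-tg 4 (0.0541). E2f2 and Ccne1 had the smallest p among those that fell (-1.11 and -0.82, adjusted p = 0.0102 and 0.0103), and neither passed without control 1 or control 3 (0.0507 to 0.0544).

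Markers of cell types also differed between the groups, and their part in the result was not tested. Their counts stand beside 5.86% of all genes tested lower and 7.69% higher. NG2 glia markers were present in every library, as the label has it, beside neuron and progenitor markers of a like summed level in controls. All 8 NG2 glia markers rose, with a summed level of 1981 to 2494 CPM in controls and 6224 to 9775 CPM in Sox9-tg libraries. Of the mature oligodendrocyte markers, Mbp (myelin basic protein) rose: it was at 33.6, 69.1 and 62.2 CPM in controls 1 to 3 and at 257, 1883, 1110.1 and 1002 CPM in Sox9-tg 1 to 4 (log2 fold change 4.27, SE 0.64, adjusted p = 0.00356). Sox9-tg 2 was highest in Mbp and Sox9-tg 1 lowest, the reverse of their summed member levels. Mog, Mal and Aspa did not pass in the test (at most 5.66 CPM in any library), and Mobp and Opalin did not pass the filter on low counts. Neuron markers fell in 6 of 11 (2411 to 3730 CPM against 1424 to 2452), radial glia markers in 4 of 8 (2091 to 2781 against 1556 to 2237), astrocyte markers in 3 of 8 (2227 to 4002 against 1495 to 2197) and neuronal progenitor markers in 1 of 8, Eomes (2133 to 3660 against 943 to 2797). None of 6 microglia markers (67.4 to 502 CPM against 32.9 to 207), 5 endothelial and mural markers (8.44 to 133 against 6.41 to 27.8) or 4 red blood cell markers (17.0 to 77.7 against 4.98 to 27.6) passed in edgeR's test, with 1, 2 and 3 at an unadjusted p under 0.05. DESeq2 called 0, 0 and 1 of them lower and limma-voom none. With the replicate block 4 microglia, 3 endothelial and mural, 3 red blood cell, 7 astrocyte and 5 neuronal progenitor markers were lower. That fit called 9.08% of all genes tested lower. Without control 3, 6 of the NG2 glia markers and 1 red blood cell marker passed, and astrocyte markers numbered 2 without control 2, control 3 or Sox9-tg 2, 3 or 4. Without Sox9-tg 2, 2 neuronal progenitor and 2 red blood cell markers were lower. These leave-one-out fits called from 2.26% (without control 3) to 5.28% (without Sox9-tg 2) of all genes tested lower. Without control 3, 575 of 17238 genes tested were higher.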

How the data were processed

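The authors deposited 1 table of raw read counts per gene for each library, whole numbers with an Ensembl ID and a gene name. The tools, per the submitters' processing notes, were STAR 2.5.2b, Subread 1.5.2 (featureCounts), Trimmomatic 0.36, DESeq and DESeq2, on GRCm38. Not given in the sources used here are their roles, the annotation release, the use of strand and the treatment of reads with several matches. Groups and replicate numbers came from the sample titles. From the counts, genes with low values were removed with edgeR's filterByExpr (minimum count 10, minimum total 15), TMM factors were computed (0.965 to 1.05), and removed genes held 0.0798% to 0.364% of a library's counts. CPM levels use these scaled totals, and the SE of a log2 fold change is its size over the square root of F. Groups were compared in R 4.3.3 with the quasi-likelihood F test of edgeR 4.0.16, two-sided, on all 7 libraries with group as the only term, Benjamini-Hochberg adjusted over 16616 genes at 0.05. On simulated data with the same spread for every gene, it recovered 5.97% of 1.5-fold changes, 21.4% of 2-fold changes and 96.7% of 4-fold changes. Of its calls there, 4.94% were false. A gene that did not pass may therefore still have changed. The members had SEs of their own, from 0.14 for Ckap2 to 0.40 for Mki67, so the simulated shares do not describe them.

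The members and the related lists were chosen with earlier results of these data known. Every member is named. Values in each library are given for the 2 members of a class with the smallest p, for Cdk1, Ccnb1, Mki67 and Top2a and for members that did not pass. Of each related list, genes called against its majority, or the 2 with the smallest p, are named. The list of mature oligodendrocyte markers is reported only in part. Coordinates and exon lengths are from GENCODE M21 (GRCm38), which held 48970 of the 49315 IDs and a length for 16563 of the genes tested. Promoters are from RefSeq (GRCm38.p6). The deviations of same-numbered libraries from their group means correlated at 0.598, 0.561 and 0.251 over 5000 genes. Between libraries of unlike number the values ran from -0.574 to 0.217. The highest of these, control 3 with Sox9-tg 4, was close to the 0.251 of replicate 3. The numbers were taken as pairs in the replicate block and the pair differences, but not in the main test. This pairing comes from the data, as the labels do not say what a number shares. Sox9-tg 3 and 4 were the most alike libraries (chi-square per degree of freedom 5.32, against 45.1 to 93.9 in other pairs of a group), more than sampling noise apart, and were kept as 2. Alternatives were other scalings and filters, DESeq2 1.42.0, limma-voom 3.58.1, robust dispersion, the replicate block and each library left out; summing Sox9-tg 3 and 4 and leaving out both libraries numbered 1 were added after seeing the data.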

Additional observations from a re-analysis of the deposited data

Results flagged for a closer look

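In 3 of the 59 members a Sox9-tg library stood apart from the other 3 by a gap that took up most of the group's range; chance gives such a gap in about 1 of 20 groups. Plk1 was at 18.8 CPM in Sox9-tg 2 and at 35.1 to 36.9 CPM in the others. Bub1b was at 25.3 CPM in Sox9-tg 2 and at 47.3 to 51.8 CPM in the others. Cit was at 48.4 CPM in Sox9-tg 1 and at 22.1 to 23.9 CPM in the others, and in the same-numbered pairs its difference in log2(CPM + 1) was -0.26, -1.48 and -1.20.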

How the results depend on the processing

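No member had a positive log2 fold change, and none was higher, in any of the 18 alternatives. With each library left out in turn, the members that were lower numbered 14 to 59 and their median log2 fold change ran from -1.23 to -0.89. Over all genes the number changed ran from 965 to 3169: it was 1261 without control 1, 965 without control 3, 1342 without Sox9-tg 3 and 1356 without Sox9-tg 4. With Sox9-tg 3 and 4 summed, 32 members were lower and 1358 genes changed. These fits have fewer libraries; why single libraries weigh so much was not tested. With both libraries numbered 1 left out, 57 members were lower, Ccnb2 and Cenpn not. The replicate block treats same-numbered libraries as pairs, so Sox9-tg 4, with no control of its number, adds nothing to its group difference. In that fit 59 members were lower (largest adjusted p 0.0175) and 3109 genes changed. The block ended no member's call. DESeq2 gave 57 members, upper-quartile factors 54 (Cit at an adjusted p of 0.0508), and the other scalings, filters and tools 55. Total counts gave 1117 genes higher and 1087 lower, and upper-quartile factors 1113 and 1112, against 1278 and 973. Each member had at least 49 counts a library, and the part of depth in the calls was not tested.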
